A study of Homo sapiens with 4 samples.

Results

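The long arm of chromosome 1 was described region by region in cells of the human melanoma line A375 after exposure to the medium-chain fatty acid octanoate. Its members were all regions of the authors' deposited table that start on chromosome 1 beyond the gap around the centromere, on the side that ends at the long-arm telomere. These were 6899 of 125986 regions in the whole table. The rest of chromosome 1 held 6582 regions. The arm was chosen from the same fold changes that are described here, because many of the regions past the threshold lie on chromosome 1. All counts and medians over its members are therefore descriptions of these libraries, with no test of the arm against other chromosomes.

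Both groups were A375 cells grown in DMEM with serum. The treated group received 1 mM octanoate for 48 h, and the control group received the vehicle, isopropanol. Each group had 2 libraries, 4 in all. No label says whether the libraries of a group came from separate cultures, so the p-values measure only the spread between these libraries, which may be technical. The table holds no value for a single library, and the depth of each is unknown. A single cell line under 1 dose and 1 time was studied. Of 8 genes of the melanocyte lineage that were looked up, 4 (MITF, PAX3, TFAP2A and EDNRB) had a listed region within 1 kb of a start, and MLANA and TYR had none there. SOX10 and PMEL had no start in the promoter table, and neither did CD3E, EPCAM and PECAM1 of the 5 genes of other cell types, so that only PTPRC and KRT5 could be checked, and neither had a region at its start. Regions inside TFAP2A, MITF, EDNRB and PAX3 reached means of 200, 168, 139 and 115 normalized reads. Those inside PTPRC and CD3E reached 93.3 and 70.1, above the 15.7 of SOX10, 14.6 of MLANA, 11.4 of PMEL and 11.1 of TYR. PECAM1 and EPCAM reached 26.4 and 10.8, and KRT5 held no region. The 2 kinds of gene overlap in these means, so these markers give no clear check of the cell type.

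In ATAC-seq the Tn5 transposase cuts DNA that is not covered by nucleosomes and tags the cut ends, so that promoters, enhancers and other regulatory elements in use stand out as regions dense in reads. Active promoters are usually the strongest such regions in any cell, while enhancers lie between and inside genes, often far from the gene they act on. The long arm carries gene-dense stretches, such as the one with the S100 and cornified envelope genes on the side of the centromere, and long gene deserts. Octanoate is a medium-chain fatty acid, which enters mitochondria largely without the carnitine shuttle that longer fatty acids need.

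Of the 17 regions of the arm that rose past the threshold, 4 hold a start listed in the RefSeq promoter table of GRCh38.p14, and 1 window for each is shown because these promoters overlap with the arm's rises. Each window runs from 250 bases before the start to 50 bases from it and lies wholly inside the region. DESI2 (chr1:244652876-244653175, plus strand) encodes a desumoylating isopeptidase, and GUK1 (chr1:228140029-228140328, plus strand, the second of its listed starts inside the region) encodes guanylate kinase. LOC124904554 (chr1:234657148-234657447, minus strand) and LOC102724446 (chr1:247640154-247640453, minus strand) are long noncoding RNAs.
DESI2: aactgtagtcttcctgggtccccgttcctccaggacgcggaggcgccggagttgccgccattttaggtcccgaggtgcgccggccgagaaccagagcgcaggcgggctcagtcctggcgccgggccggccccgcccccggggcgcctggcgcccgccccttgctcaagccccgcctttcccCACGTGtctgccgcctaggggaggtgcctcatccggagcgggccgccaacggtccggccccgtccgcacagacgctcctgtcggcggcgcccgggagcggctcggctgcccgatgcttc
GUK1: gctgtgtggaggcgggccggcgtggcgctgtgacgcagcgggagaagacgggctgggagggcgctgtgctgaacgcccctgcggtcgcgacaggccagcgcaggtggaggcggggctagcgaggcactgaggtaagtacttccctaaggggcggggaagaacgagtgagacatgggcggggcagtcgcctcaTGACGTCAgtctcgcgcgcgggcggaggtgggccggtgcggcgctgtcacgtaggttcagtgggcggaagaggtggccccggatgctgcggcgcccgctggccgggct
LOC124904554: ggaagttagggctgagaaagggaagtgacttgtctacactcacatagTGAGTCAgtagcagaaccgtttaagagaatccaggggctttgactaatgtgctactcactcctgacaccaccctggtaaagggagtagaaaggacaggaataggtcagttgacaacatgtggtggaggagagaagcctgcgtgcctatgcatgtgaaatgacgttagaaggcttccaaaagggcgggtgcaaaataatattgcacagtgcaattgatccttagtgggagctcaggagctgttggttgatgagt
LOC102724446: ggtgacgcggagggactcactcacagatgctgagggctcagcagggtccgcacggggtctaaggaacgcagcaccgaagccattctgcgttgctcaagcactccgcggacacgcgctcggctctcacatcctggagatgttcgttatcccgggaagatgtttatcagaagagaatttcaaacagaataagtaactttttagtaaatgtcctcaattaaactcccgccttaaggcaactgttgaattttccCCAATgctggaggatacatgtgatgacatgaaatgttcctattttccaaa
Capitals mark matches to a motif on either strand. They are the E-box CACGTG in DESI2, the cyclic AMP response element TGACGTCA in GUK1, the AP-1 site TGANTCA in LOC124904554 and the CCAAT box in LOC102724446. These motifs occur in 7.23%, 1.84%, 7.72% and 34.6% of all 34943 promoter windows, in the same order. No capital stretch overlaps another, since each window held 1. The SP motif GGGCGG, left in lower case, was also searched and matched 4 times in the GUK1 window, 2 times in DESI2, 1 time in LOC124904554 and 0 times in LOC102724446, and is held by 44.9% of all windows. The letters TATAAA and CCGGAAG, held by 11.6% and 10.2% of all windows, were in none of the 4, and neither was the NRF1 motif, held by 1.23%. GC content was 74.7% in the DESI2 window and 71.7% in that of GUK1, but 47.7% in LOC124904554 and 48.7% in LOC102724446. The other GUK1 window inside the region (chr1:228139834-228140133) held no cyclic AMP response element and 1 match to the SP motif, with 66.3% GC. The 2 GUK1 windows overlap, and the response element lies past the end of the other one. The median GC content was 58.7% over all windows. Over the 22048 coding windows of all chromosomes it was 62.3%, and over the 1126 of the arm 58.7%.

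Accessibility was compared between octanoate and vehicle to ask where along the arm it changed. The fold changes of the authors' deposited table lay above 0 in 75.1% of the arm's 6899 regions, with a median of 0.26 on the log2 scale and quartiles of 0.00083 and 0.53. On the rest of chromosome 1 the median was 0.25, with 74.0% above 0, and on the other nuclear chromosomes it was 0.23, with 71.8% above 0. The difference between the arm and the rest of its chromosome, 0.0054, was small against the spread among regions. At the rule's edge the nearest region outside (125119515 to 125119799) had a mean of 4.23 normalized reads and a log2 value of 0.10 in the authors' deposited table, and the first inside (143326427 to 143327758) had 4.22 and -1.03.

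Weak regions have a deposited p-value too, but only strong regions entered the authors' adjustment. A region is called tested if it is one of the 11185 with a mean normalized read count of at least 63.8. The deposited adjusted p-values were computed over these. Regions called weak, or too weak to be tested, are those left out of this adjustment. On the arm 934 regions (13.5%) were tested, against 10.5% of regions on the rest of chromosome 1 and 8.49% on other nuclear chromosomes, so the arm's regions were stronger by their mean over both groups. The middle region of the arm had a mean of 15.7 normalized reads, against 13.2 on the rest of the chromosome and 11.9 elsewhere. The tested regions of the arm had a median of 0.22 on the log2 scale and ran from -0.11 to 0.61 between the 5th and 95th percentiles. Of them 89.0% were above 0, against 85.7% when the tested regions of every chromosome are counted.

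Of the arm's 934 tested regions, 17 had an adjusted p under 0.05 in the authors' deposited table, all of them higher after octanoate. This was 1.82%, beside a background of 1.02% higher and 0% lower among all tested regions. By unadjusted p-values under 0.05, the arm had 207 higher regions (22.2%) and 4 lower, beside backgrounds of 14.8% higher and 0.107% lower. Because the arm was picked with these counts known, nothing is read from the gaps to the background. The median standard error of the arm's tested regions in the authors' deposited table was 0.21, so that an unadjusted p of 0.05 took a log2 fold change of 0.40. The whole table is shifted upward, and after subtraction of the median of all tested regions, 0.19, 2 of the 17 still passed, those in TNR and PCNX2 (adjusted p 0.0129 and 0.0342). After subtraction of the median of the tested regions of chromosome 1, 1 was left.

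Along the arm the fold changes were not even. The arm was cut into 22 steps on a grid of 5 Mb, numbered from the centromere. Step 1 is shorter, with only the arm's 60 regions before 145 Mb, and step 22 ends with the chromosome. The step medians ran from 0.081 to 0.40. They were above the median of the rest of chromosome 1 in 12 steps and below it in 10. The 4 steps with the highest medians were step 18 (225 to 230 Mb, 0.40), step 19 (230 to 235 Mb, 0.39), step 22 (the last step, from 245 Mb, 0.38) and step 8 (175 to 180 Mb, 0.35). The 4 lowest were step 12 (195 to 200 Mb, 0.081), step 11 (190 to 195 Mb, 0.093), step 16 (215 to 220 Mb, 0.12) and step 10 (185 to 190 Mb, 0.13). Steps 10 to 12 follow each other, so the lowest stretch runs from 185 to 200 Mb, with 863 regions and a median of 0.093. It lies directly beyond steps 8 and 9, which had a median of 0.33 over 759 regions.

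**Figure D1:**
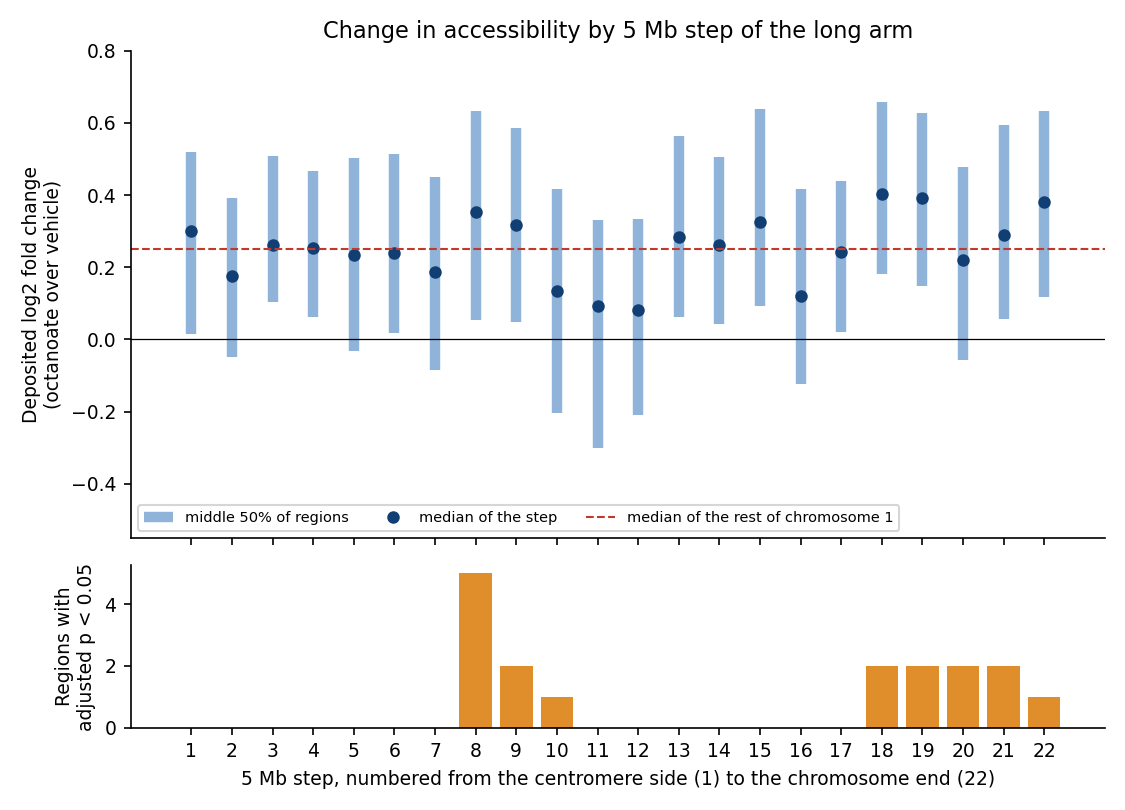
Deposited log2 fold change of octanoate over vehicle by 5 Mb step of the long arm, numbered from the centromere: points are step medians, bars the middle 50% of regions and the dashed line the median of the rest of chromosome 1, and the lower bars count regions with an adjusted p under 0.05. The step medians fall to 0.081 in step 12 and reach 0.40 in step 18, and 8 of the 22 steps hold a region past the threshold.

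The arm's steps were set beside those of other chromosomes. The 545 steps of other chromosomes had a median of 0.21, quartiles of 0.14 and 0.28, and an SD of 0.104, and the arm's 22 had a median of 0.26 and an SD of 0.0932. Of the arm's steps 8 were above the upper quartile of the others and 4 below their lower quartile. The 25 steps of the rest of chromosome 1 ran wider, from 0.018 to 0.48. Steps with at least 2 regions past the threshold made up 6 of 22 on the arm (27.3%), 18 of 545 on other chromosomes (3.30%) and 1 of 25 on the rest of chromosome 1, where the first 5 Mb held 8. No test was made of these counts, which follow from the choice of the arm.

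In windows of 1 Mb, 105 of 106 medians were above 0. The highest was 0.63 over 35 regions at 227 to 228 Mb, the window with WNT9A, and the next was 0.50 at 230 to 231 Mb, where GALNT2 lies. The 1 window below 0 was 190 to 191 Mb, with -0.034 over 49 regions. The 17 regions past the threshold fell in 13 windows, and 4 of them shared the window from 175 to 176 Mb.

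Strong and weak regions of each step were described separately. Over the 22 steps the median of the tested regions and the median of the regions too weak to be tested had a Pearson r of 0.65 and a Spearman rho of 0.67. The 2 medians share no region, but they share the 4 libraries and the authors' scaling, and no p is given. Step 8 had 0.26 in its 49 tested regions and 0.38 in its weak ones, and step 18 had 0.31 in 48 tested regions and 0.48 in weak ones. Step 12 had 0.093 and 0.076, and step 11 had 0.10 and 0.081. The first step departed from this, with 0.44 in tested regions, but it held only 4 of them. On the rest of chromosome 1, over 25 steps, r was 0.81 and rho 0.84.

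**Figure D2:**
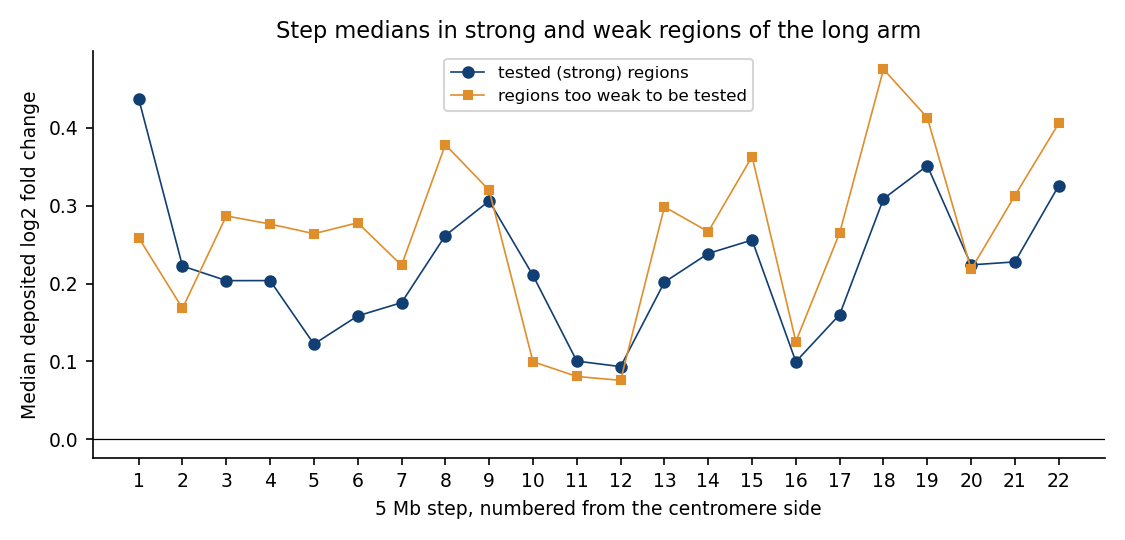
Median deposited log2 fold change of each 5 Mb step of the long arm, drawn separately for tested regions (circles) and for regions too weak to be tested (squares). Both lines are near 0.1 in steps 11 and 12 and at 0.31 and 0.48 in step 18.

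High and low steps were also compared within classes of signal. The split into the 4 highest and 4 lowest steps was made after the step medians were seen, so the values only describe it. Among regions with a mean of 30 or more normalized reads the median log2 fold change was 0.33 in the high steps (398 regions), 0.22 in all other steps (1354) and 0.14 in the low steps (262). Among regions with a mean under 8 it was 0.48, 0.32 and -0.031, in the same order. At coding starts it was 0.30 over 104 regions of the high steps, and 0.12 over 30 regions of the low steps. Low steps were poor in genes: 2.96% of their regions were at most 1 kb from an end of a coding gene and 33.6% inside one, against 10.6% and 54.0% in the high steps. Of the 17 regions past the threshold, 10 lay in the 4 high steps, which was 5.18% of their tested regions, and 1 in the low steps, which was 0.870%.

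**Figure D3:**
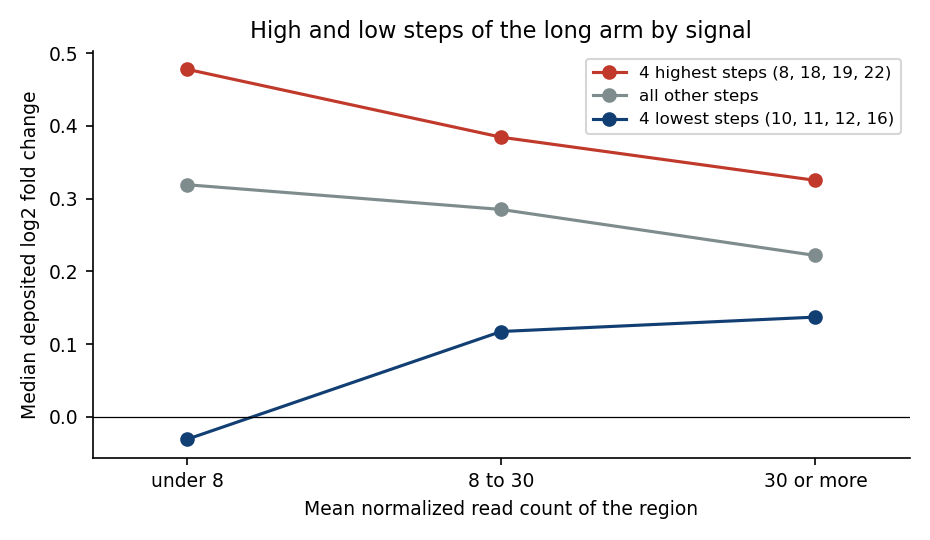
Median deposited log2 fold change by mean normalized read count of the region, for the 4 highest steps, the 4 lowest and the others. The 3 lines keep their order in each class of signal, from 0.48 against -0.031 under 8 to 0.33 against 0.14 at 30 or more.

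Step medians were set beside other features of the steps. Over the 22 steps of the arm the correlation of the median log2 fold change with the GC content of the coding promoter windows of the step was r = 0.59 (rho = 0.60), and on the 25 steps of the rest of chromosome 1 it was r = 0.51 (rho = 0.45). With the share of regions inside a gene it was r = 0.47 (rho = 0.44), with the mean signal r = 0.35 (rho = 0.30), and with the number of coding genes r = 0.20 (rho = 0.24). On the rest of chromosome 1 these were r = 0.52 (rho = 0.48), r = 0.31 (rho = 0.40) and r = 0.56 (rho = 0.47), in the same order. With the mean spacing of regions the arm had r = -0.13 (rho = -0.18) and the rest of the chromosome r = -0.14 (rho = -0.72). Over the arm's steps the median of regions within 1 kb of a coding gene end and that of all other regions had r = 0.78 (rho = 0.81), at different levels: over the whole arm these medians were 0.21 and 0.27, and over the 4 high steps 0.30 and 0.40. Step 22, with a median of 0.38, had the lowest GC content of coding promoter windows, 46.75% for 52 genes. Step 1, with a median of 0.30, had the highest, 70.3%, but for 5 genes. All these step values share the same libraries, and the part of GC content in the step medians was not tested. Within the arm, 494 of the 1126 coding promoter windows lay in a tested region, and the median over these windows was 0.19 on the log2 scale, with 457 windows above 0. It was 0.20 for the 252 windows with at least 65% GC and 0.18 for the 242 with less.

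Kinds of region differed by their place relative to genes. At coding starts the arm's 598 regions had a median log2 fold change of 0.20, below the 0.27 of the 2082 regions deep inside genes (over 10 kb from an end) and the 0.29 of the 1990 regions between 10 and 200 kb from a gene. Other chromosomes had 0.13, 0.25 and 0.26 for these kinds, and the rest of chromosome 1 had 0.16, 0.28 and 0.26. In gene deserts the median of the arm was the lower one. The arm's 640 regions over 200 kb from a coding gene had 0.18, against 0.24 on other chromosomes and 0.22 on the rest of chromosome 1. Of these 640, 388 lay in the 4 low steps with a median of 0.098, 221 in the middle steps with 0.26, and 31 in the high steps with 0.54.

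The 17 regions past the threshold had log2 fold changes from 0.49 to 1.36 in the authors' deposited table, with a median of 0.77, and 3 at least doubled. Their mean normalized read counts ran from 69.2 to 412, so most were of moderate strength and 5 were under 100. Within 1 kb of an end of a coding gene (its start included) lay 3 of the 17 (17.6%), against 402 of the 934 tested regions of the arm (43.0%), and 13 lay over 10 kb from one. Ends of noncoding genes were not counted here, and 2 of these 13 hold the long noncoding RNA starts shown above. Inside a coding gene lay 9, and 8 lay outside. Of the 17, 10 had another within 1 Mb, and 42.6 Mb without any separated the region near IVNS1ABP from that in WNT9A. Since no value per library is given, the level of each group was worked out from the deposited mean and fold change, with both groups given equal weight, and is called the implied level.

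**Figure D4:**
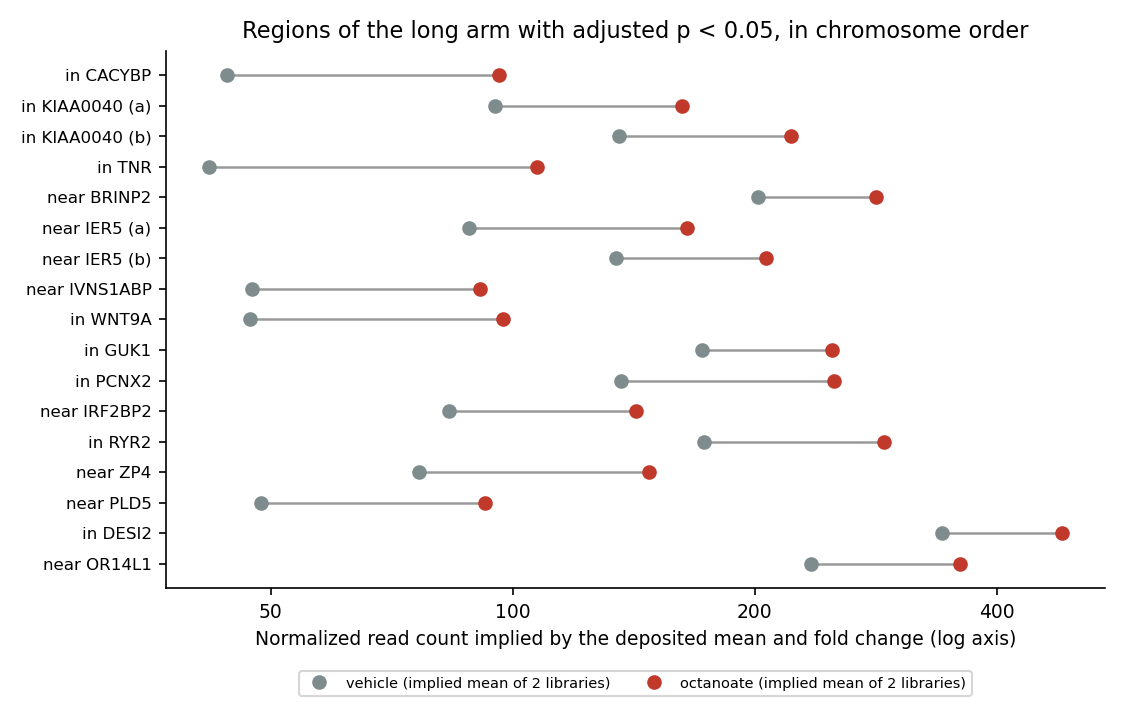
Normalized read counts implied for vehicle (grey) and octanoate (red) in the 17 regions of the long arm past the threshold, on a log axis, in chromosome order and named by the coding gene they overlap or lie nearest to. The octanoate point is to the right of the vehicle point in all 17, and the longest line, from 41.8 to 107, is that of TNR.

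Close to the start of step 8, 4 of them lay in a stretch of 744 kb from CACYBP, which encodes a protein that binds the calcium sensor S100A6, to TNR, which encodes the extracellular matrix protein tenascin-R of the nervous system. The TNR region (175470725 to 175471842, 156 kb from an end of the gene) had implied levels of 41.8 in vehicle and 107 in octanoate. In the authors' deposited table its log2 fold change, 1.36, was the highest among the tested regions of the arm (standard error 0.25, adjusted p 0.000119). The CACYBP region (175004744 to 175005610) had implied levels of 44.1 and 96.1, and rose by 1.12 (standard error 0.25, adjusted p 0.00445) in the authors' deposited table. A region at the end of KIAA0040, a gene of little-known function, rose by 0.77 (175157223 to 175158885, adjusted p 0.0101), and another inside it by 0.71 (175168794 to 175170218, adjusted p 0.00585), in the authors' deposited table. The 12 tested regions of this stretch were all above 0, from 0.098 at the MRPS14 start to 1.36, and 8 of them had an unadjusted p under 0.05, beside 85.7% and 14.8% of all tested regions. The stretch was picked for the regions past the threshold that it holds. The strong start of CACYBP itself, with a mean of 504, was at 0.15 (adjusted p 0.527) in the authors' deposited table. Over all 57 regions of the stretch the median was 0.46, with 49 above 0. The remaining region of step 8 past the threshold lay 27.0 kb from BRINP2, a gene active in neurons (177309392 to 177311613), and rose by 0.49 (adjusted p 0.0440) in the authors' deposited table.

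IER5, an immediate early gene induced by growth factors and by stress, lies in step 9 with 2 regions past the threshold on its far side. The first, 19.5 kb away (181112352 to 181113621), had implied levels of 88.1 in vehicle and 165 in octanoate, a rise of 0.90 in the authors' deposited table (standard error 0.19, adjusted p 0.00139). The second, 48.5 kb away (181141404 to 181142900), went from an implied 134 to 207, a rise of 0.62 in the authors' deposited table (standard error 0.17, adjusted p 0.0281). The start of IER5 was a stronger region, with a mean of 356, and was at 0.37 (adjusted p 0.0952) in the authors' deposited table. All 8 tested regions within 100 kb of the gene were above 0, beside 85.7% of all tested regions, but farther out a tested region in KIAA1614 was at -0.30 (adjusted p 0.590 in the authors' deposited table). Within 250 kb of the first region past the threshold 8 of 9 other tested regions were above 0. Of the 8 within 100 kb of the gene, the 5 not yet named ran from 0.10 to 0.42, with the STX6 start at 0.28 and the MR1 start at 0.34. None of these 5 passed in the authors' deposited table. Over all 28 regions within 100 kb the median was 0.36, with 24 above 0. The 4 at or below 0 were all too weak to be tested, and the 20 weak regions had a median of 0.34. CACNA1E, the next gene, encodes a voltage-gated calcium channel and held 48 regions with a median of 0.46, none of them strong enough to be tested.

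PCNX2 encodes a membrane protein of the pecanex family and lies in step 19. A region 129 kb from its nearer end (233112676 to 233114462) had implied levels of 136 in vehicle and 251 in octanoate. In the authors' deposited table it rose by 0.88 (standard error 0.16, adjusted p 0.000119). Within 250 kb of it 5 of 6 other tested regions were above 0. The gene's own 6 tested regions were at 0.88, 0.48, 0.33, 0.30, 0.17 and -0.27 in the authors' deposited table, and the lowest was the 1 other tested region within 50 kb of the rise. The value of 0.33 belongs to a region at the far end of PCNX2 that also holds the start of MAP3K21. Over all 17 regions of the gene the median was 0.25, below the step's 0.39.

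Step 19 holds other genes with high medians. DISC1, a scaffold gene named for a psychiatric disorder, had a median of 0.57 over 27 regions, with 2 tested. SIPA1L2 had 0.46 over 17 regions, and its 4 tested regions had a median of 0.39. GALNT2 encodes an enzyme that starts O-linked glycosylation. None of its 5 tested regions passed, among them those at 0.72, 0.71 and 0.62 in the authors' deposited table (adjusted p 0.101, 0.105 and 0.0525). EGLN1, the prolyl hydroxylase that senses oxygen, had its 1 tested region at 0.45 (adjusted p 0.0921) in the authors' deposited table. Among 23 genes of the stretch chosen with these results known, 44 tested regions overlapped one or had it as the nearest gene within 100 kb, 41 of them above 0. Of the 44, 2 passed the threshold and 16 (36.4%) had an unadjusted p under 0.05, beside 85.7% above 0, 1.02% past the threshold and 14.8% by unadjusted p among all tested regions. The other region past it lay 46.4 kb from IRF2BP2, which encodes a corepressor, at the start of LOC124904554 (234656564 to 234658544), and rose by 0.77 (adjusted p 0.0248) in the authors' deposited table. The IRF2BP2 start, with a mean of 469, was at 0.20 (adjusted p 0.360) there. All 11 tested regions from IRF2BP2 to TOMM20 were above 0, beside 85.7% of all tested regions.

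Step 20 held RYR2, the calcium release channel of heart muscle, and the desert beyond ZP4, a gene of the egg coat. The RYR2 region (237759174 to 237760316, 73.7 kb from an end) went from an implied 173 to 289.9 and rose by 0.75 in the authors' deposited table (standard error 0.14, adjusted p 0.000255). The desert runs 1496 kb from the end of ZP4 to CHRM3, which encodes a muscarinic acetylcholine receptor. It held 87 regions with a median of 0.19, of which 57 were above 0. Its 1 region past the threshold (238408976 to 238409912), 518 kb from ZP4 and overlapping the long noncoding RNA LOC105373220, went from an implied 76.5 to 148. In the authors' deposited table it rose by 0.95 (standard error 0.21, adjusted p 0.00235). The 4 other regions within 50 kb were all below 0, with a median of -0.10, but none was strong enough to be tested and their standard errors ran from 0.71 to 1.12. A weak region at -68.2 kb from its centre was at 1.01 (standard error 0.41). The other 10 tested regions of the desert ran from -0.35 next to ZP4 to 0.66, and 7 of them were above 0. They include the region at the CHRM3 start (0.24), on the border of the desert, which is also counted with CHRM3. Those at 0.66 (238606426 to 238607415) and 0.62 (238252056 to 238252795) had adjusted p-values of 0.0786 and 0.235 in the authors' deposited table. In pieces of 250 kb, without the CHRM3 start, the medians were 0.18, 0.43, 0.14, 0.13, 0.18 and 0.18, the highest over 8 regions. CHRM3 itself had a median of 0.040 over 48 regions but 0.33 over its 9 tested ones.

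**Figure D5:**
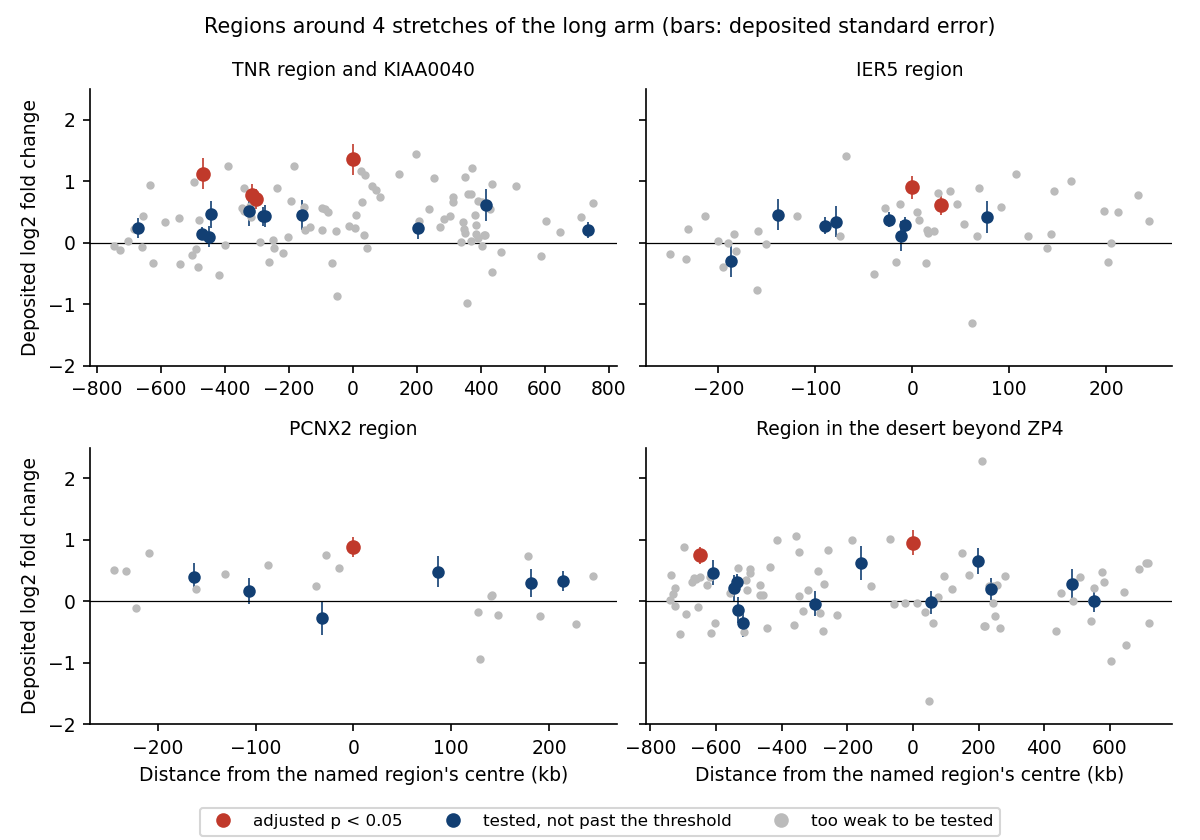
Deposited log2 fold changes around the regions in TNR, near IER5, in PCNX2 and in the desert beyond ZP4, by distance in kb from the centre of each: red points passed the threshold, blue points were tested, grey points were too weak, and bars are the authors' standard errors. The panels of IER5 and PCNX2, 250 kb to each side, each hold 1 tested region below 0 (at -0.30 and -0.27), that of TNR, 750 kb to each side, holds none, and that of the desert, also 750 kb, holds 4.

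Among the other regions past the threshold, that in WNT9A, which encodes a secreted Wnt ligand, was highest (227934582 to 227935460). It went from an implied 47.1 to 97.2 and rose by 1.04 in the authors' deposited table (standard error 0.25, adjusted p 0.0101). The GUK1 start, 204 kb on (228139667 to 228140841), rose by 0.54 with an adjusted p of 0.0499, at the edge of the threshold, in the authors' deposited table. The IBA57 start nearby was just outside it, at 0.48 and 0.0508. The DESI2 start (244652310 to 244654110) was the strongest of the 17, with implied levels of 342 and 483 and a rise of 0.50 (standard error 0.12, adjusted p 0.00971) in the authors' deposited table. The region 16.5 kb from the olfactory receptor gene OR14L1, at the LOC102724446 start (247638834 to 247640898), rose by 0.62 (adjusted p 0.00108) in the authors' deposited table. Regions 98.6 kb from PLD5 (242629137 to 242629935) and 56.5 kb from IVNS1ABP (185373767 to 185374580) rose by 0.93 and 0.94 (adjusted p 0.0362 and 0.0290) in the authors' deposited table. The IVNS1ABP region was the 1 region past the threshold in the 4 low steps, and the 23 regions within 250 kb of it had a median of 0.18.

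The lowest tested regions of the arm lay mostly in step 16. The lowest of all was in step 8, 10.2 kb from CRYZL2P-SEC16B (178048181 to 178049314), with implied levels of 107 in vehicle and 63.4 in octanoate. Its log2 fold change was -0.75 (standard error 0.23, adjusted p 0.0664) in the authors' deposited table, which did not pass, although its step had a high median. The next 4 were all in step 16, near LYPLAL1 (-0.64), KCTD3 (-0.55), ESRRG (-0.53) and SPATA17 (-0.41), with adjusted p-values from 0.165 to 0.435 in the authors' deposited table. The same step also had a tested region at 0.68 near ZC3H11B (adjusted p 0.119) in the authors' deposited table. The start of KCTD3, the strongest region of the step with a mean of 259, was at 0.023.

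In the 14 steps without a region past the threshold, the highest tested region reached 0.80, in S100A10, whose product pairs with annexin A2 (adjusted p 0.0534 in the authors' deposited table). Others were near NUF2 (0.70), in SFT2D2 (0.68), near NEK2 (0.63), near DUSP10 (0.63), at the BTG2 start (0.61), in LMNA (0.48) and near GPR89B (0.44), none of which passed in the authors' deposited table. The strongest region of each of these 14 steps lay between -0.025 and 0.42 in the authors' deposited table. The highest of them were near S100A11 (0.42), near PPIAL4F (0.41), in BCL9 (0.34) and at the DDX59 start (0.30). The POU2F1 start (mean 322) was at -0.025, the DUSP10 start (393) at 0.065, the NEK7 region (492) at 0.088, the RO60 start (416) at 0.094 and the TAGLN2 start (459) at 0.29 in the authors' deposited table.

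Genes with many regions were compared by their medians. Of 138 genes of the arm with at least 12 assigned regions, 131 had a median above 0 and 7 below, from -0.068 in NEK7 to 0.61 in KCNH1, a potassium channel gene. Over the regions that overlap the gene, SMYD3, a lysine methyltransferase gene of the last step, had 0.50 in 54 regions. Its 6 tested regions had a median of 0.67, and 5 had an unadjusted p under 0.05, beside 14.8% of all tested regions. The highest was at 0.82 (adjusted p 0.0590) in the authors' deposited table, above the region of the step that passed. TNR had 0.50 over 29 regions. In the low steps, KCNT2, a potassium channel gene, had 0.015 over 26 regions, and ESRRG, an orphan nuclear receptor gene, had 0.17 over 52.

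Gene groups of the arm were described by regions that overlapped a member or had it as the nearest coding gene within 100 kb. These groups were drawn up with earlier results of these data known, so their values support nothing beyond themselves, and they are read beside all tested regions, of which 85.7% were above 0, 1.02% passed the threshold as higher and 14.8% were higher by unadjusted p, with a median of 0.19. Immediate early and stress response genes, which answer growth signals and damage within minutes to hours, had 32 tested regions from 14 genes, all above 0, with a median of 0.32. Of these, 3 passed the threshold, 2 by IER5 and 1 by IRF2BP2, and 11 (34.4%) had an unadjusted p under 0.05, beside 14.8% of all tested regions. ATF3, a stress-induced transcription factor gene, had regions at 0.60 and 0.41, and the start of BTG2, an antiproliferative gene, was at 0.61, with adjusted p-values of 0.139, 0.0741 and 0.169 in the authors' deposited table. The starts of PTGS2 (cyclooxygenase-2), TP53BP2 and DUSP10 were at 0.11, 0.083 and 0.065 in the authors' deposited table.

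The S100 genes, which encode small calcium-binding proteins, had 13 tested regions, 12 of them above 0, with a median of 0.28. None passed, and 5 (38.5%) had an unadjusted p under 0.05, beside 14.8% of all tested regions. S100A10 was highest, with 0.80 inside the gene and 0.34 at its start, and a region 10.5 kb from S100A11 was at 0.42 (adjusted p 0.0675) in the authors' deposited table. The cornified envelope and filaggrin genes, which lie beside them and build the outer skin layer, had 60 regions with a median of 0.40, 51 above 0, but 2 that could be tested, at 0.18 and 0.052. Among olfactory receptor genes, 133 regions near 41 of 58 genes had a median of 0.40, 107 above 0, and a median of the mean read count of 8.05. Of these, 4 were tested and 1, near OR14L1, passed. The zinc finger genes of the arm's last bands had 14 tested regions, all above 0, with a median of 0.27, and 6 (42.9%, beside 14.8%) had an unadjusted p under 0.05. The start of ZNF672, the strongest of them with a mean of 639, was at 0.34 (adjusted p 0.0512) in the authors' deposited table.

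Genes of lipid and mitochondrial metabolism had 26 tested regions, 24 above 0, with a median of 0.19 and none past the threshold (2 higher by unadjusted p). The highest lay near ACBD6, which encodes an acyl-CoA-binding protein (0.55, adjusted p 0.138), and THEM4, an acyl-CoA thioesterase gene (0.46, adjusted p 0.181), in the authors' deposited table. The lowest, at SDHC, which encodes a subunit of the respiratory chain, was at -0.070 there. Genes of cancer growth and survival had 29 tested regions, 25 above 0, with a median of 0.18 and none past the threshold (3 higher by unadjusted p). The highest was 1.87 kb from MCL1, an antiapoptotic gene, at 0.71 (adjusted p 0.0565), with ABL2, a kinase gene, next at 0.52 (adjusted p 0.238) in the authors' deposited table. MDM4, an inhibitor of p53, had regions at 0.34 and 0.20.

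Matrix and adhesion genes had 37 tested regions, 33 above 0, with a median of 0.24, the TNR region was the 1 past the threshold, and 5 (13.5%) had an unadjusted p under 0.05 as higher. LAMC1, a laminin chain gene, had a region at 0.51 (adjusted p 0.305), and TGFB2 had 1 at -0.14 (adjusted p 0.785), in the authors' deposited table. RGS genes, regulators of G protein signalling, had 19 tested regions with a median of 0.10, 14 above 0, and ranged from -0.20 near RGS1 to 0.63 near RGS4. None passed the threshold, and 3 (15.8%) were higher by unadjusted p. Nuclear receptor genes had 14 with a median of 0.14, 11 above 0, and ranged within ESRRG and its surroundings from -0.53 to 0.43. None of these passed the threshold, and by unadjusted p 2 (14.3%) were higher and 1 was lower. Leukocyte and endothelial genes, which mark other cell types than melanoma, had 181 regions with a median of 0.25, but 11 tested ones from 8 of 37 genes, with 9 above 0 and none past the threshold (2 higher by unadjusted p). The highest of these was near IL24, a cytokine gene first found in differentiating melanoma cells, at 0.52 (adjusted p 0.0786) in the authors' deposited table.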

How the data were processed

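ATAC-seq libraries of A375 cells, 2 with octanoate and 2 with vehicle, were compared through 1 table of regions that the authors deposited. Per the file headers, the signal is a mean of normalized read counts, here over 4 libraries, and the other columns the authors deposited are a log2 fold change with its standard error, a score (the Wald statistic), a p-value and an adjusted p-value. It has 0 columns per library, so no interval for counting error is given. The score equalled the log2 fold change over its standard error to within 2.31e-14, and the deposited adjusted p-value equalled Benjamini-Hochberg adjustment across those 11185 regions whose mean reached 63.8. The other 114801 regions have a p-value too, but are listed with an adjusted p of 1 and were treated as not tested. The submitters' processing notes name the build hg38 and the tools Trim Galore, cutadapt, FastQC, Bowtie2, Picard, MACS2, featureCounts, DESeq2 and bedtools 2.29.1, with no parameters. How peaks were merged, how reads were scaled and whether they were shifted for the Tn5 cut are not given in the sources used here. The scaling bears on every fold change, since 85.7% of tested regions lay above 0.

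Region starts were taken as 0-based, because the mitochondrial region runs from 0 to 16569, and are printed 1-based. Each region was assigned to the protein-coding gene it overlapped or else to the nearest (RefSeq, GRCh38.p14, 20052 genes). Exons, introns and UTRs were not used here. Medians and counts were computed with Python 3.11.15, numpy 2.4.6, pandas 2.3.3 and scipy 1.17.1, figures with matplotlib 3.10.9, and the computation was tested on simulated data. The members, the gene lists and the rules were chosen with earlier results of these data known. Named regions were those past an adjusted p of 0.05, the 5 highest and 5 lowest tested regions, the highest tested region of each step, the strongest region of steps without a region past the threshold, tested regions of PCNX2, IER5 and the ZP4 desert, and members of the lists. Other genes (DISC1, SIPA1L2, CACNA1E, KCNT2, CHRM3, KCNH1, MRPS14, IBA57, TOMM20) were singled out after their values were seen. Other thresholds, centrings, filters and step positions were tried as alternatives. Results for some members of the lists are not reported here.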

Additional observations from a re-analysis of the deposited data

How the results depend on the processing

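The count of 17 regions of the arm past the threshold depended on the adjustment and the centring. It became 46 at an adjusted p under 0.1 (45 higher, 1 lower), 9 at 0.01, 9 with Benjamini-Hochberg over all regions and 2 after centring on the median of all tested regions. Chosen after seeing the data, centring on the tested median of chromosome 1 gave 1 and leaving out the 4 highest steps gave 7. The arm's median minus that of the rest of chromosome 1, 0.0054, changed sign without regions within 1 kb of a coding gene end (-0.0030) and, both added after seeing the data, without the 4 highest steps (-0.019) and at matched mean signal (-0.0047). The cause was not tested. It was 0.022 in tested regions, 0.024 at or above the median mean signal, 0.013 without the first and last 5 Mb of the chromosome, 0.0069 with the arm begun at 150 Mb, 0.016 as a mean weighted by precision and, added later, 0.021 without the first 5 Mb. The number of steps above the rest of chromosome 1, 12 of 22, was between 11 and 15 under its 4 alternatives. No paired analysis was possible because single libraries have no column in the table, and so no replicate could be left out either, and no other scaling or count test could be run. The depth of each library is unknown and limits the description to regions as the authors scaled them.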
